A study of Rattus norvegicus with 23 samples.

Results

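The proteasome members described here are the probe sets whose annotated gene is a proteasome gene of the families Psma to Psmg, the inducible subunits Psmb8, Psmb9 and Psmb10 being left out. They were chosen by symbol alone, from probe sets that carry 1 gene symbol. The rule uses no measured value, though earlier results of these data were known when it was set. The rule found 51 probe sets of 44 genes among the 29211 probe sets of the array, and 49 of them, covering all 44 genes, passed the signal minimum and were among the 13339 probe sets tested. The remaining 2, second probe sets of Psma6 and Psmd8, averaged signals of 32.7 and 26.0. The rule is wider than the constitutive subunits, since it also takes activators, assembly chaperones, and 3 other genes. These are Psma3l, which is likened by name to the alpha subunit Psma3, and Psmc3ip and Psme3ip1, which only share the name stem.

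The study asked whether restoring FKBP1b, a protein that stabilizes calcium release channels, alters the aging hippocampus of male F344 rats. RNA of the dorsal hippocampus was measured on 23 arrays, 1 for each animal. LT rats (n = 6) and ST rats (n = 6), aged 21 months, had an AAV vector carrying FKBP1b injected into the hippocampus, for a longer exposure in LT (9 months by the labels) and a shorter one in ST (3 months). AC rats (n = 5), also aged 21 months, had a vector carrying eGFP, and YC rats (n = 6) were 5 to 6 months old. The labels call YC rats sham-treated and the methods give them no injection. Any difference between AC and YC thus includes age and the eGFP vector and, by the methods, surgery. The labels put the injection at 18 months of age in AC, 18 in ST and 12 in LT, whereas the design text gives 13, 19 and 13. The eGFP vector had a titer of 1.86e+13 and the FKBP1b vector 1.99e+12 genome copies per ml, so a difference of ST or LT from AC includes both the transgene and the dose of vector. It also includes the age at injection and the time since, for ST by the design text and for LT by the labels. Both transgenes were driven by a CaMKII promoter, which restricts expression mainly to excitatory neurons, whereas the RNA came from the whole tissue. The animals of ST and LT put on arrays were those whose FKBP1b expression was above their group's median.

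The proteasome is the protease that degrades ubiquitin-tagged proteins in the cytosol and nucleus. Its 20S core is a barrel of outer alpha and inner beta rings, in which the beta subunits Psmb5, Psmb6 and Psmb7 carry the catalytic sites, and its 19S cap has a ring of ATPases (Psmc) that unfold substrates together with non-ATPase subunits (Psmd) that bind and strip ubiquitin. Interferon replaces the catalytic subunits with Psmb8, Psmb9 and Psmb10 and induces PA28, an alternative cap built from Psme1 and Psme2, and in neurons proteasome activity takes part in synaptic plasticity.

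Sequences upstream of 4 members are shown because the results below turn on the PA28 genes, called between AC and YC, and on the catalytic subunits beside them. Each is the 250 bases before the annotated start, from RefSeq on the rat assembly GRCr8, written along the strand of the gene, with motif matches in capitals. Psme1 lies at chr15:33038721-33038970 on the plus strand, Psme2 at chr15:33052752-33053001 on the minus strand, Psmb5 at chr15:32047380-32047629 on the minus strand and Psmb6 at chr10:55737638-55737887 on the plus strand.
Psme1: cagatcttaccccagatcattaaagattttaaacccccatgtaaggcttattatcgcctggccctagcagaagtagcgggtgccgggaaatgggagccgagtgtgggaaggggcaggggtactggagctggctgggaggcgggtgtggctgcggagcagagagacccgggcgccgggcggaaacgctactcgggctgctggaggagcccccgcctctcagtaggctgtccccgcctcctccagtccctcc
Psme2: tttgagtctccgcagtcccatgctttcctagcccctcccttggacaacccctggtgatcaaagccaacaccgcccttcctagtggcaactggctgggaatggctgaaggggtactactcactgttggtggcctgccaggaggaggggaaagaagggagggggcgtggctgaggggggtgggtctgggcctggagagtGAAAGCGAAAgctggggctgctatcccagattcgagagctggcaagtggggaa
Psmb5: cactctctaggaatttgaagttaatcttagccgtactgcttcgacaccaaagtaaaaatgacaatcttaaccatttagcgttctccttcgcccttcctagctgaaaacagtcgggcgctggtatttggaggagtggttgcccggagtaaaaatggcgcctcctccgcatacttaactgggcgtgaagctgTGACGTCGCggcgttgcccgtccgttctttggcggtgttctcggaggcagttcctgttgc
Psmb6: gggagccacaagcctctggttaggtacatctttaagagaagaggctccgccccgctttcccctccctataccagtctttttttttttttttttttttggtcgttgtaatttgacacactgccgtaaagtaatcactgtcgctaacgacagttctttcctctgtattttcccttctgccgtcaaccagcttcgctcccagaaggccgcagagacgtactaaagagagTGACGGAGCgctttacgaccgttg
The capitals in Psmb5 and Psmb6 match TGACNNNGC, the core of the antioxidant response element, and those in Psme2 match the core of the interferon-stimulated response element, which is GAAA, any 2 bases and GAAA. Windows of 300 bases, reaching past the start, were found for 38 of the 44 genes and searched on both strands. TGACNNNGC was in 7 of them (18.4%), against 12.1% of all 33469 windows. The interferon core was in 5 of them (13.2%, Psma4, Psmb3, Psmd7, Psme2 and Psmg4), against 3.92% of all, and also in those of Psmb8 and Psmb10. It was picked for display after the counts of 6 motifs had been seen. The other 4 were TGANNNNGC (55.3% of members, 40.5% of all), CCAAT (47.4% and 37.5%), TTCNNNGAA (7.89% and 8.87%) and the interferon core followed by C (0 of 38 members, 0.881% of all). A match is a description of letters and not a site. Psme1 and Psme2 lie near each other on chromosome 15, with the gene Emc9 between them.

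Proteasome transcripts gave high signals. The 49 tested probe sets had a median signal, averaged over arrays, of 746, against 296 for all tested probe sets, and 39 of the 49 reached 400. Signals of different probe sets depend on their probes and do not rank the genes. Psmb11, a subunit of the thymus, had a mean signal of 43.6, near the minimum. Replicates were close together, with a median SD over the members of 0.050 log2 units in LT, 0.052 in ST, 0.068 in AC and 0.049 in YC. Tested probe sets with a mean signal of at least 400 had 0.057, 0.052, 0.083 and 0.051 in the same order of groups, and all tested ones 0.081, 0.076, 0.108 and 0.072.

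Between aged and young rats, 4 of the 49 proteasome probe sets were called higher in AC than in YC and 0 lower (limma, adjusted p under 0.05 over all tested probe sets). The table as a whole had 5.56% called higher and 4.18% lower, so the share of members called, 8.16% higher, stood near the background. The 4 were Psme1 and Psme2, the PA28 subunits, Psmc3, an ATPase of the 19S base, and Psmg1, a chaperone that starts assembly of the alpha ring. At an unadjusted p under 0.05, 8 members were higher and 3 lower, against 13.7% of all tested probe sets in each direction, and the methods' one-way analysis of variance called 1 lower, Psmd6. The median difference of the members was 0.022 log2 units, with 28 above and 21 below 0, against -0.0062 for all tested probe sets. That median is 0.044 when array medians are made equal and -0.0082 when medians of the tested probe sets are made equal, so no direction is given for the family. The division of all calls moves too, with 742 higher and 558 lower as deposited, 991 and 356 with array medians equal, and 507 and 1200 with medians of the tested probe sets equal.

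**Figure D1:**
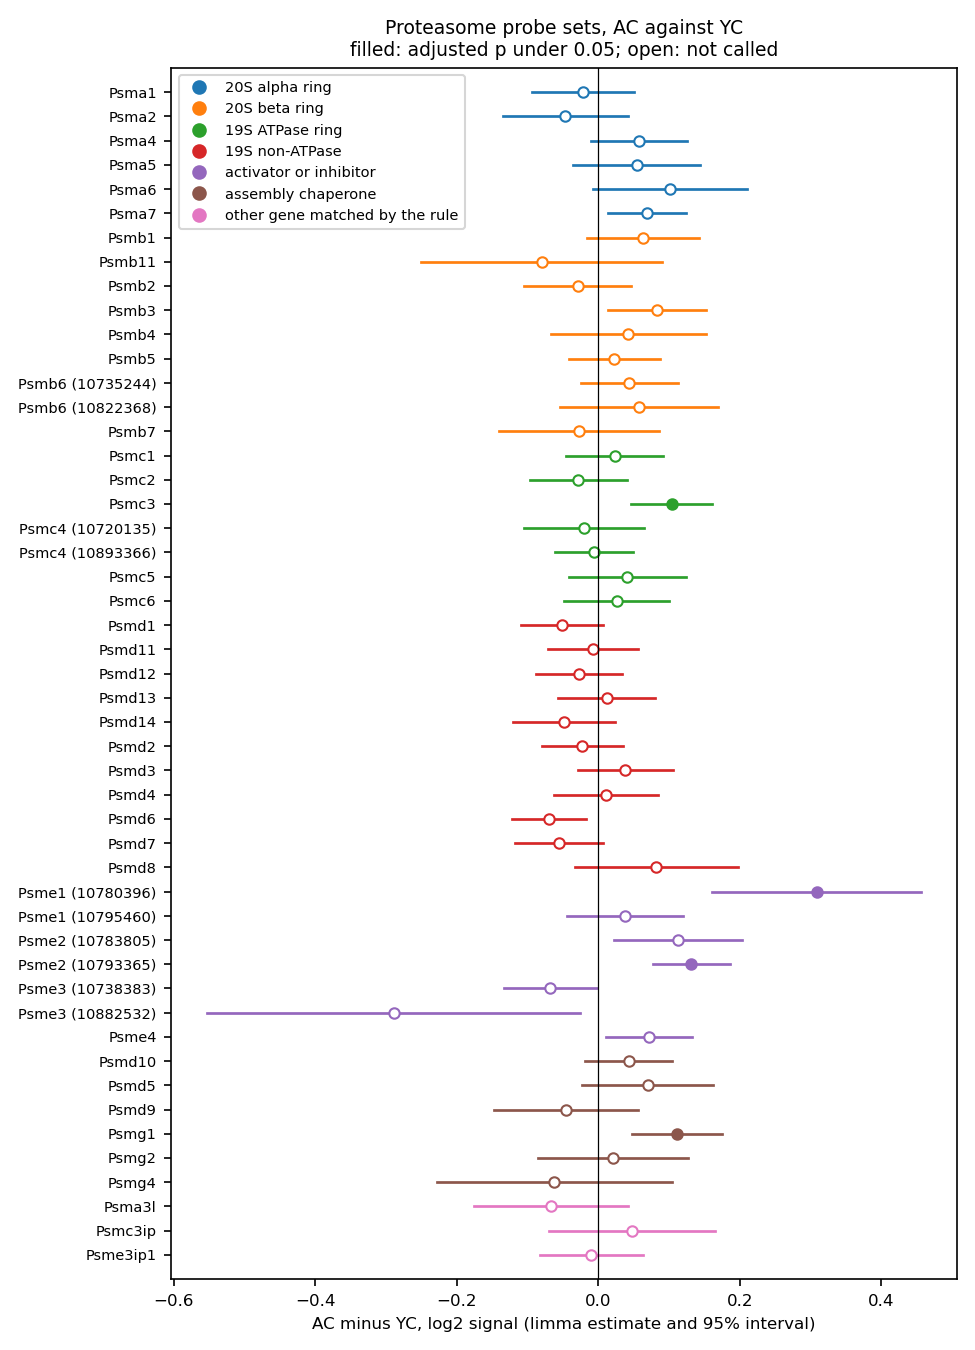
Log2 difference of each tested proteasome probe set, AC minus YC (horizontal axis), with limma's 95% interval, by role. Filled points are the 4 at an adjusted p under 0.05, all to the right of 0, and the farthest is Psme1 at 0.31.

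Psme1, the alpha subunit of PA28, had the largest difference among the called members. Its main probe set (10780396) gave 727, 703, 882, 905 and 902 in AC, against a lowest of 635, a median of 655 and a highest of 697 in YC. Every AC array was above every YC array, as held for 3 members and for 3.21% of all tested probe sets, but 3 of the 5 AC arrays stood well above the other 2. The difference was 0.31 log2 units (95% interval 0.16 to 0.46, limma adjusted p = 0.011). Without the 5 arrays whose choroid plexus score, the mean centred log2 signal of markers of that tissue, was over 0.5, 2 of them AC arrays, it was 0.22 (adjusted p = 0.106). With all arrays and that score as a covariate, Psme1 stayed called. A second Psme1 probe set (10795460), with signals of only 63 to 68 in AC against 60 to 67 in YC, differed by 0.04 (adjusted p = 0.571).

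Psme2 encodes the beta subunit of PA28. Probe set 10793365 gave 386, 392, 382, 411 and 385 in AC, against 340 to 367 (median 360) in YC. The groups did not overlap, and the difference was 0.13 log2 units (95% interval 0.08 to 0.19, adjusted p = 0.0046). The second probe set, 10783805, gave 682, 623, 719, 706 and 703 in AC, against 583 to 682 (median 649) in YC. Its arrays overlapped and its difference of 0.11 did not pass (adjusted p = 0.099). Across the 4 groups, probe set 10793365 had the smallest F test p of all members (adjusted p = 0.016).

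Psmc3, the ATPase Rpt5, gave 1067, 1037, 1052, 1022 and 1144 in AC, against 956 to 1032 (median 986) in YC. The groups overlapped by 1 array on each side, and the highest value was AC 5, an array of RNA integrity number 8.9. The difference was 0.10 log2 units (95% interval 0.05 to 0.16, adjusted p = 0.023). Without AC 5 it was 0.08 (adjusted p = 0.039), and without YC 2 it was 0.09 (adjusted p = 0.054). Psmg1 gave 458, 452, 415, 427 and 421 in AC, against 385 to 411 (median 404.5) in YC. All AC arrays were above all YC arrays, by 0.11 log2 units (95% interval 0.05 to 0.18, adjusted p = 0.026). This call was lost without AC 1, without AC 2 or without YC 4 (adjusted p of 0.051, 0.063 and 0.059).

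**Figure D2:**
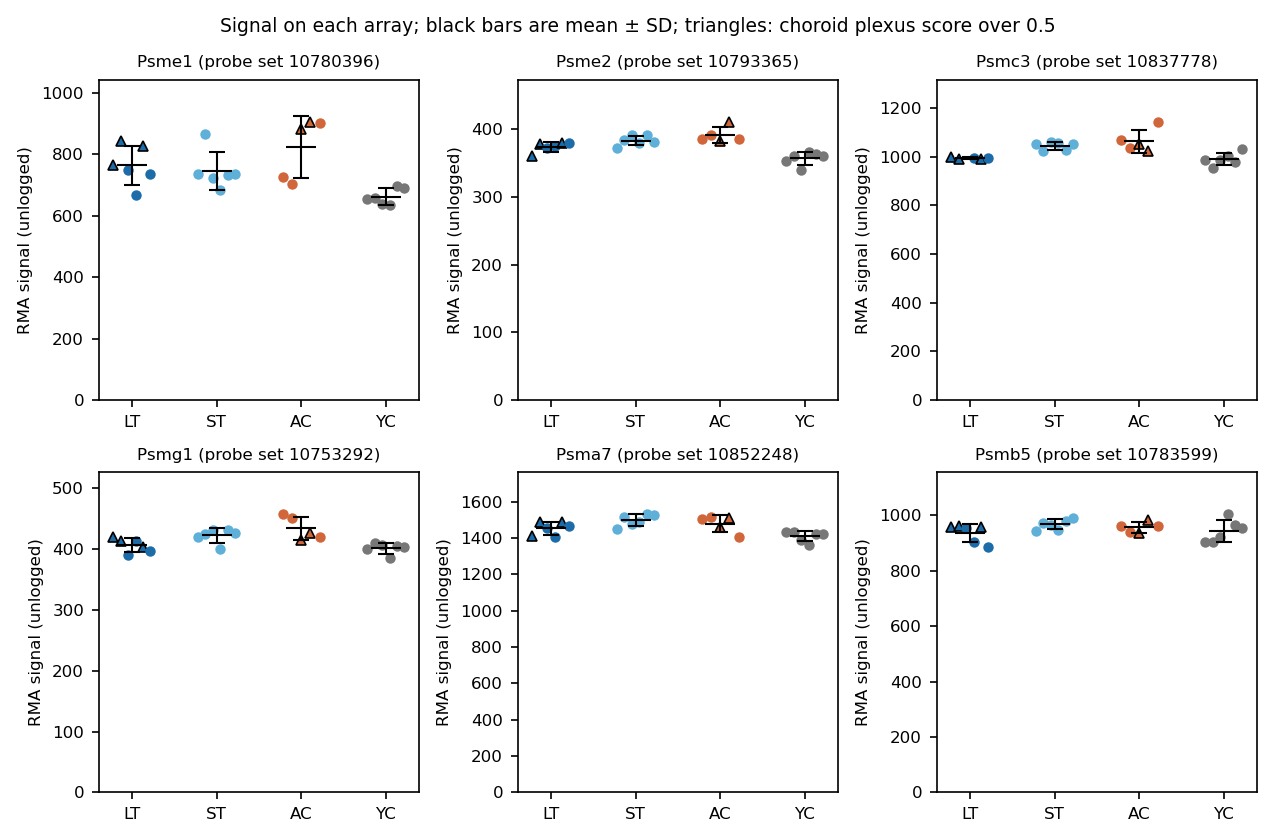
Unlogged signal on each array for 6 proteasome probe sets in LT, ST, AC and YC rats, with black bars for the mean and SD and triangles for the 5 arrays with a choroid plexus score over 0.5. Psme1 in AC spans 703 to 905 and lies above all 6 YC arrays, whereas Psmb5 lies between 887 and 1005 in all groups.

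Of the 20S core, 0 of 6 alpha and 0 of 9 beta probe sets were called. All tested probe sets had 5.56% higher and 4.18% lower, so 0 calls in lists this short are not read as a result. The alpha probe sets included none for Psma3, and Psma3l was counted apart from them. Among alpha subunits, Psma7 had the smallest F test p, and it gave 1503, 1519, 1462, 1509 and 1409 in AC, against 1363 to 1434 (median 1424.5) in YC. Only AC 5 fell within the YC range. The difference of 0.07 log2 units did not pass (adjusted p = 0.0996), and without AC 5 it was 0.09 (adjusted p = 0.033). Among beta subunits, Psmb3, which is not catalytic, gave 1071, 1080, 1086, 1057 and 1032 in AC, against 950 to 1039 (median 1007) in YC, with a difference of 0.08 (adjusted p = 0.115).

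The catalytic subunits gave estimates near 0. Psmb5, the chymotrypsin-like site, gave 961, 941, 936, 984 and 963 in AC, against 903 to 1005 (median 939) in YC, a difference of 0.02 log2 units (95% interval -0.04 to 0.09). Psmb6, the caspase-like site, gave 995, 1037, 1036, 1033 and 1128 in AC, against 972 to 1053 (median 1010.5) in YC, a difference of 0.04 (95% interval -0.02 to 0.11). Psmb7, the trypsin-like site, gave 2910, 2476, 2545, 2756 and 2898 in AC, against 2579 to 2933 (median 2777.5) in YC, a difference of -0.03 (95% interval -0.14 to 0.09). A second Psmb6 probe set (10822368) differed by 0.06 (adjusted p = 0.519). The arrays of the groups overlapped for each of these genes, and none passed (adjusted p of 0.679 for Psmb5, 0.406 for Psmb6 and 0.786 for Psmb7).

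Of the inducible counterparts 1 of 3 was called, against 5.56% of all tested probe sets called higher and 4.18% lower. Psmb10 was higher in AC, at 240 to 289 against 210 to 248 in YC (0.16 log2 units, adjusted p = 0.027). Psmb8, at 77 to 94 in AC against 76 to 83 in YC, and Psmb9, at 138 to 194 against 132 to 167, differed by 0.13 and 0.11 and did not pass (adjusted p of 0.167 and 0.483). Whether an inducible subunit differed more than the constitutive subunit it replaces was not tested.

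**Figure D3:**
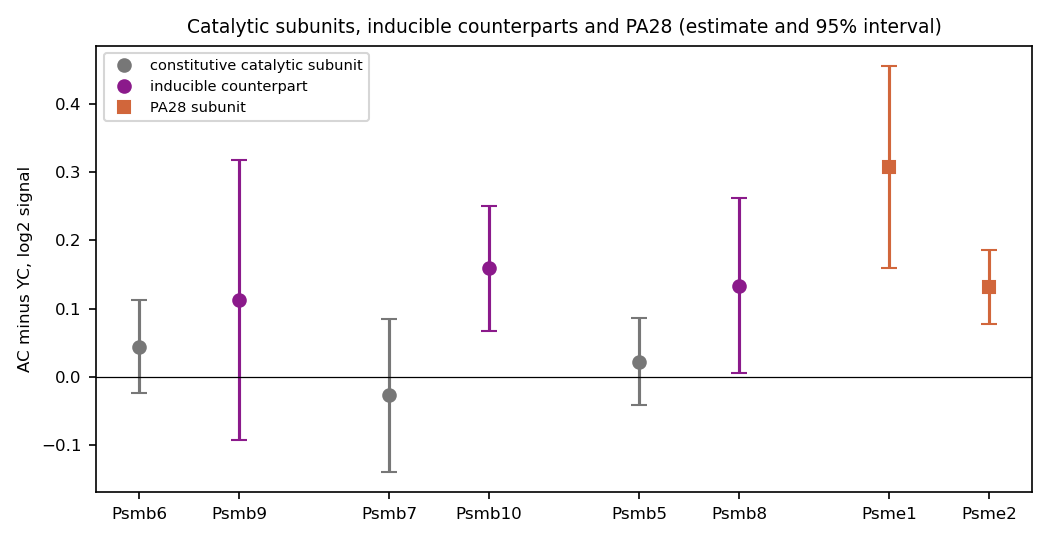
Log2 difference AC minus YC (vertical axis) with 95% intervals for the catalytic subunits Psmb6, Psmb7 and Psmb5, each beside its inducible counterpart, and for the PA28 subunits. The constitutive subunits as drawn lie between -0.03 and 0.04, and the inducible ones between 0.11 and 0.16. For Psmb6 the probe set of higher signal is drawn, and for Psme1 and Psme2 the one with the smaller p. Not drawn are second probe sets of Psmb6 (0.06), Psme1 (0.04) and Psme2 (0.11).

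In the 19S cap, 1 of 7 ATPase probe sets was called (Psmc3) and 0 of 11 non-ATPase probe sets. These counts and those of the activators and chaperones below stand beside 5.56% called higher and 4.18% lower of all tested probe sets. The other ATPases lay between -0.03 and 0.04 log2 units. Psmd6, a lid subunit, had the smallest F test p among the non-ATPases and gave 1917, 1876, 1788, 1845 and 1863 in AC, against 1871 to 1992 (median 1951) in YC. Its difference of -0.07 log2 units did not pass (95% interval -0.12 to -0.02, adjusted p = 0.077). Psmd1 gave 1324 to 1388 in AC against 1392 to 1447 in YC, a difference of -0.05 (adjusted p = 0.236). It was the 1 member with every AC array below every YC array, as held for 251 of all 13339 tested probe sets. With medians of the tested probe sets equal, Psmd1 and Psmd6 were called lower. Among the other activators, Psme3, the nuclear PA28 gamma, had 2 probe sets at -0.07 and -0.29 (adjusted p of 0.169 and 0.145), and Psme4, the PA200 cap, stood at 0.07 (adjusted p = 0.121). Of the 6 assembly chaperones only Psmg1 passed. Psma3l is named for its likeness to Psma3, and its probes may bind both. It gave 472, 544, 461, 538 and 524 in AC, against 514 to 543 (median 533) in YC, with overlapping arrays and a difference of -0.07 (adjusted p = 0.43), and a probe set that carries both symbols was not among the members.

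For 43 of the 49 probe sets the 95% interval of AC minus YC lay within 0.2 log2 units of 0, or 87.8%, against 76.5% of tested probe sets with a mean signal of at least 400 and 53.6% of all tested, a limit chosen after the data had been seen. The share describes precision, and probe sets of high signal had smaller SDs.

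Markers of other cell types also differed between AC and YC, beside 5.56% called higher and 4.18% lower of all tested probe sets. Of 11 tested microglial markers 9 were higher in AC, with summed signals of 4260 to 8231 in AC against 3424 to 3617 in YC, and of 7 endothelial markers 6 were higher, with sums of 2171 to 2736 against 1911 to 2008. Of 9 choroid plexus markers 0 were called, but the sums ran from 2624 to 36081 in AC against 3242 to 4086 in YC, and the high arrays were AC 3 and AC 4. Of 7 astrocyte markers 2 were higher, Gfap (0.43 log2 units, adjusted p = 0.0022) and S100b (0.09, adjusted p = 0.023), with sums of 20661 to 22943 in AC against 20777 to 21566 in YC. No marker of oligodendrocytes, inhibitory neurons or T cells was called (0 of 8, 0 of 7 and 0 of 5). Excitatory neuron markers had 0 of 8 called, with sums of 36224 to 41089 in AC against 38339 to 40774 in YC. Scores made as for the choroid plexus were lowest of all arrays on AC 5 for excitatory neurons (-0.47) and oligodendrocytes (-0.40). The oligodendrocyte sum was 16887 on AC 5, against 20949 to 22147 in YC. In AC 1 to AC 5 the Psme1 signals were 727, 703, 882, 905 and 902, and the microglial sums were 4260, 4456, 4398, 4305 and 8231. The endothelial sums of the same arrays were 2171, 2321, 2736, 2685 and 2671, and the choroid plexus sums 3506, 3104, 29039, 36081 and 2624. The part of these markers in the PA28 and Psmb10 differences was not tested, and in whole tissue more cells of a type and more RNA per cell cannot be told apart.

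No member was called between either FKBP1b group and AC. In ST against AC 0 of 49 members were called, as were 0 of all tested probe sets (background 0%), and 5 members were higher and 0 lower at an unadjusted p under 0.05, against 4.91% of all in each direction. In LT against AC 0 members were called, against 0.0750% of all tested, and 0 were higher and 3 lower unadjusted (6.03% and 6.59% of all). In LT against ST 0 members were called, against 0.00750% of all, and 1 was higher and 5 lower unadjusted (4.95% and 7.45% of all). The methods' analysis of variance, run here with the same adjustment of p, and every other alternative also gave 0 calls in these 3 comparisons. The methods themselves took an unadjusted p of 0.05 or less in both the analysis of variance and the pairwise contrasts. Medians of the members were 0.022 log2 units in ST minus AC, -0.0084 in LT minus AC and -0.036 in LT minus ST, against 0.0100, -0.0031 and -0.013 for all tested probe sets. With medians of the tested probe sets made equal, the median of LT minus AC was 0.012. The comparisons share the AC or ST arrays.

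For the 4 members called between AC and YC, differences of the FKBP1b groups from AC did not pass. These members were picked for high AC arrays, and the same AC arrays serve in these comparisons, so nothing is read from estimates below 0. Psme1 (10780396) gave 668 to 841 (median 757.5) in LT and 683 to 865 (median 734.5) in ST, and differed from AC by -0.10 in LT (95% interval -0.25 to 0.04, adjusted p = 0.555) and -0.14 in ST (-0.29 to 0.01, adjusted p = 0.54). The ST estimate was -0.02 with the choroid plexus score as covariate (adjusted p = 0.941). Psme2 (10793365) gave 360 to 379 (median 376.5) in LT and 373 to 392 (median 382.5) in ST, and differed by -0.07 (adjusted p = 0.303) and -0.03 (adjusted p = 0.762). These ranges all overlap those of AC except for Psme2 in LT, where every array was below every AC array, as held for 0.540% of all tested probe sets, a share over probe sets not picked for high AC arrays.

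Psmc3 gave 991 to 998 in LT, where LT 3 has no value, and 1022 to 1062 (median 1053) in ST. Every measured LT array was below every AC array. The LT difference of -0.10 did not pass (95% interval -0.16 to -0.04, adjusted p = 0.17), and ST differed by -0.02. The methods treated outlying values as missing, so the blank on LT 3 may be a removed value. The measured LT arrays had an SD of 0.004 log2 units, against 0.063 in AC. The lack of overlap may depend on the blank. So may the Psmc3 calls in AC against YC and in the F test, whose variance includes LT. This was not tested. Psmg1 gave 391 to 421 in LT and 400 to 432 in ST, which overlap AC, with differences of -0.10 (adjusted p = 0.193) and -0.04 (adjusted p = 0.709). Psmb5 gave 887 to 962 in LT and 945 to 992 in ST, differing from AC by -0.03 and 0.02.

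**Figure D4:**
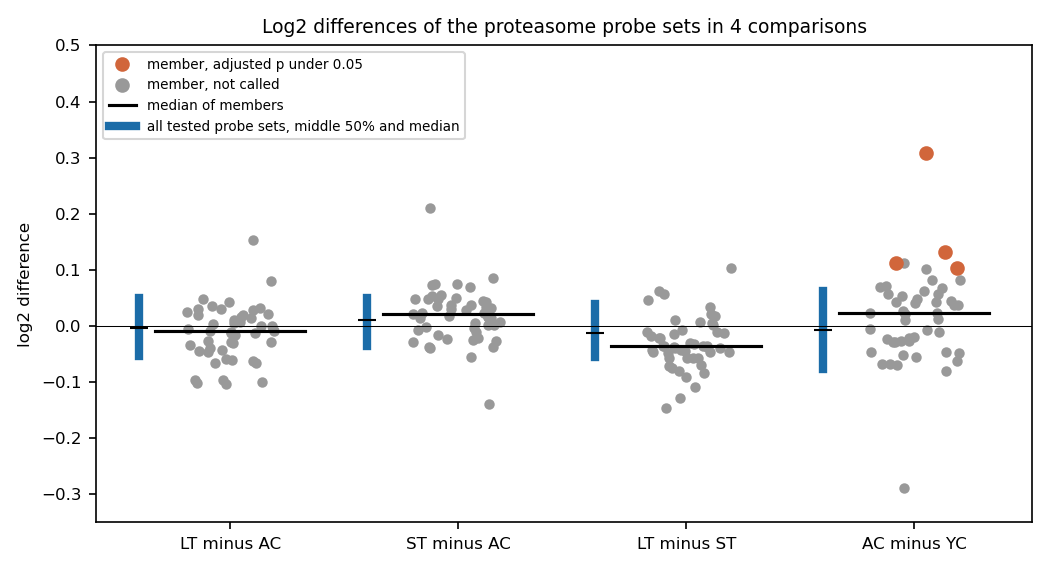
Log2 differences of the 49 tested proteasome probe sets in LT minus AC, ST minus AC, LT minus ST and AC minus YC, with a black line for their median and a blue bar for the middle 50% of all tested probe sets. Of these 4 comparisons only AC minus YC has members at an adjusted p under 0.05, which are the 4 larger points.

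Against young rats, ST had 1 member called higher, Psme2 (0.10 log2 units, adjusted p = 0.023), and 0 lower, against 2.71% and 1.44% of all tested probe sets. At an unadjusted p under 0.05, 10 members were higher in ST and 0 lower, against 12.3% and 9.42% of all. Of the 49 differences 40 were above 0 and 9 below, with a median of 0.038 log2 units, against 0.0050 for all tested probe sets and 0.020 for those with a mean signal of at least 400. These values depend on the scaling of the arrays. With array medians equal 7 members were called higher (Psma4, Psma6, Psma7, Psmc3, Psmd10, Psme1 and Psme2) and the median was 0.076, against 0.043 for all tested. With quantile normalization 0 were called and the median was 0.027, and with medians of the tested probe sets equal 0 were called, 30 differences were above 0 and 19 below, and the median was 0.011, against -0.021 for all tested. The calls over the whole table, 361 higher and 192 lower as deposited, were 1079 and 157 with array medians equal, and 184 and 320 with medians of the tested probe sets equal. LT had 0 called, against 0.810% higher and 0.225% lower of all, with 3 higher and 1 lower unadjusted (7.22% and 6.17% of all). Over the 4 groups the F test called 3 members (Psme2, Psmc3 and Psme1) of 49, against 5.46% of all tested probe sets. Averaged over the members, arrays differed little, with mean centred log2 signals of -0.034 to 0.021 in LT, 0.00038 to 0.039 in ST, -0.0080 to 0.012 in AC and -0.040 to 0.0039 in YC. The average hides opposite differences of single members, since AC 5 was the highest array for 8 members and the lowest for 6.

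**Figure D5:**
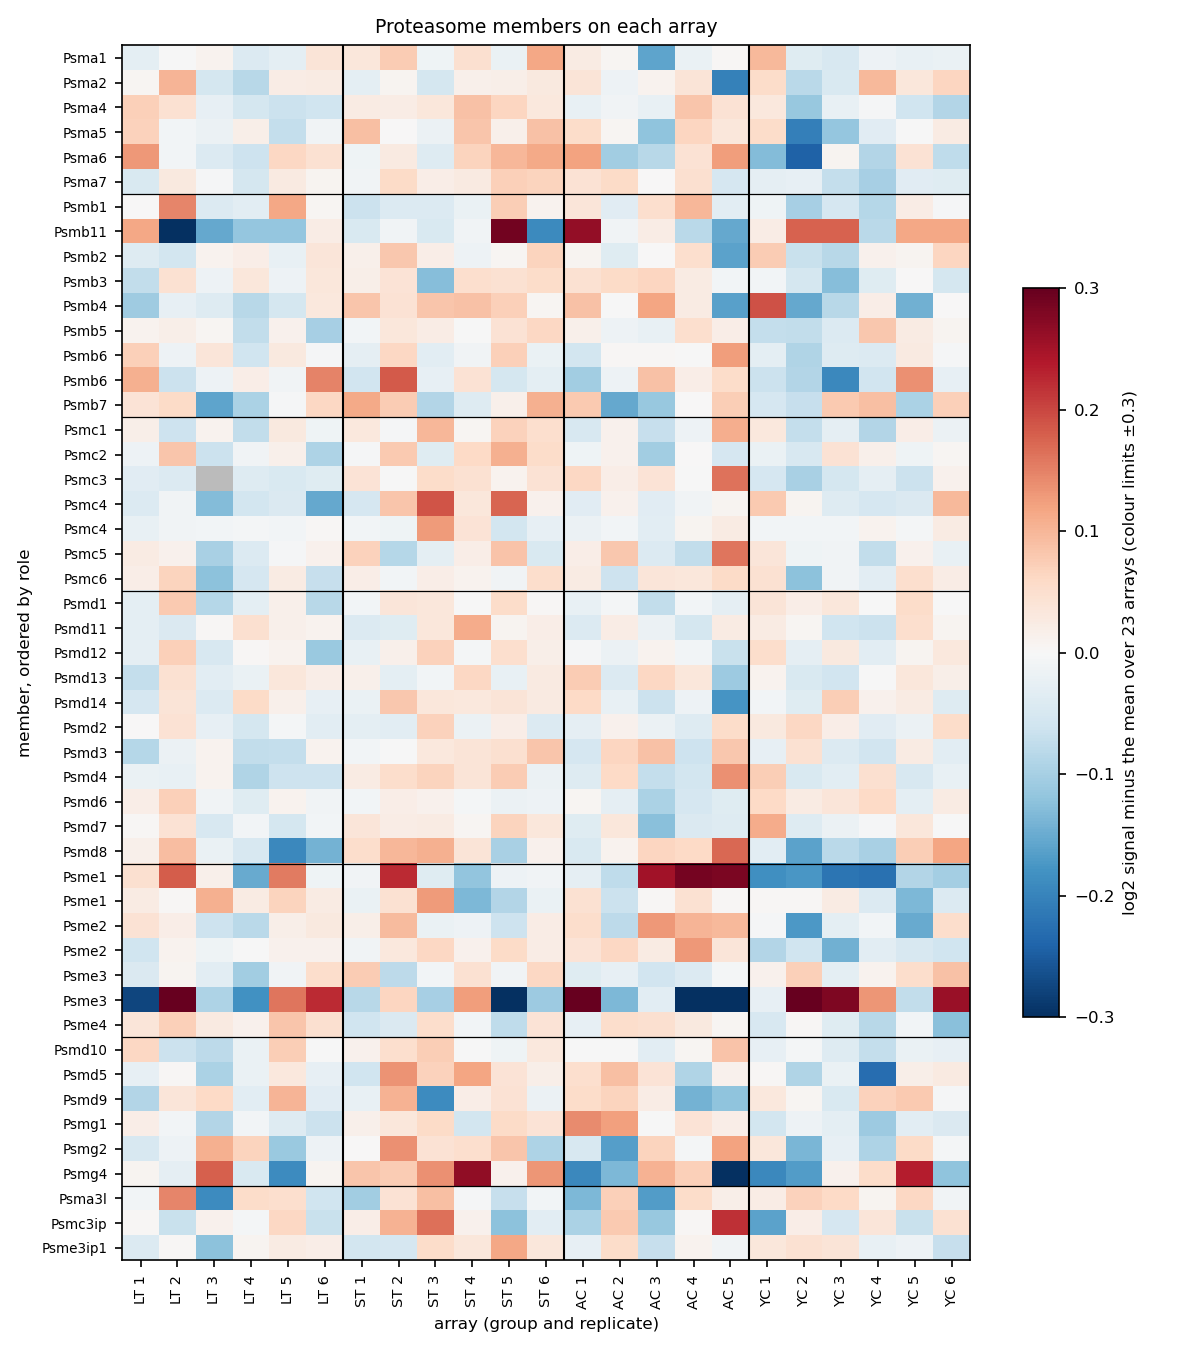
Log2 signal of each tested proteasome probe set on each array, centred on its mean over the 23 arrays and ordered by role, with colour limits at ±0.3 and 1 missing value in grey. Psme1 is high on AC 3, AC 4 and AC 5, and the missing value is Psmc3 on LT 3.

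Calls among other genes of the ubiquitin pathway between AC and YC, at 0 or 1 in each direction for each list, are read beside the 5.56% higher and 4.18% lower of all tested probe sets, and nothing is called particular to a list. Of 17 proteasome-associated factors 1 was higher, Pomp, the maturation factor of the 20S core, at 1183 to 1283 in AC against 1012 to 1179 in YC (0.20 log2 units, adjusted p = 0.0086). Of 26 probe sets of ubiquitin-activating and conjugating enzymes 1 was higher, Ube2e3 (0.13, adjusted p = 0.021), and 1 lower, Ube2d2 (-0.13, adjusted p = 0.028), both conjugating enzymes. Of 21 ubiquitin ligase and cullin genes 1 was higher, Ubr4, a large ligase of the N-degron pathway (0.12, adjusted p = 0.012). Of 22 probe sets of deubiquitinating enzymes 0 passed, the smallest p being that of Atxn3 (0.12, adjusted p = 0.054), and of 12 genes of p97 and ER-associated degradation 0 passed, the smallest being that of Syvn1 (0.06, adjusted p = 0.121). The medians of these lists were 0.046, -0.024, -0.0096, -0.042 and 0.014 log2 units, in the order given. Pomp stood at 1013 to 1107 in LT, below every AC array, as held for 0.540% of all tested probe sets. The difference of -0.21 did not pass (adjusted p = 0.060). Pomp was named for being called higher in AC, and the same AC arrays serve here, so nothing is read from this difference.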

How the data were processed

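Signal intensity values per probe set of 23 Affymetrix Rat Gene 1.0 ST arrays were made by the authors with the Robust Multiarray Average algorithm. These values were deposited unlogged, as whole numbers with some blanks. The methods treated outlying values as missing, and whether the blanks are such values is not stated. The intensities could therefore already lack some outlying values. The intensities were used as deposited. Versions of the RMA implementation and of Partek are not stated by the labels or the methods. Groups came from the labels, and the methods state 6 arrays in each group, of which 5 were analysed for AC. Each sample is labelled as a separate animal.

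Probe sets with 1 annotated symbol were kept where 4 or more arrays reached a signal of 40, and their log2 intensities were fitted in limma 3.58.1 (R 4.3.3) with 1 mean for each group and moderated variances. Probe sets are named from the platform annotation. Benjamini-Hochberg adjustment ran over all 13339 probe sets, and an adjusted p under 0.05 was called. The methods' analysis of variance was run on unlogged signals with this adjustment, which the methods did not apply to their calls. Intervals are 95%. For arrays, the number of animals limits the precision.

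The members and gene lists were chosen with earlier results of these data known. Values on each array are given for members called in a comparison of the aged groups or AC with YC, the smallest F test p in each role, and Psmb5, Psmb6 and Psmb7, with further probe sets of called or catalytic genes. In each other list up to 4 called genes with the smallest p are named, or the gene with the smallest p. Chosen after values were seen were the limit of 0.2 log2 units, the signal of 400, the printed promoters and 2 alternatives, which were arrays left out at a choroid plexus score over 2 and medians of the tested probe sets made equal. The choroid plexus score is the mean centred log2 signal of the marker list. Of the 44 genes 43 matched RefSeq (GRCr8). Figures were drawn with matplotlib. Other alternatives were array medians made equal, quantile normalization, no signal minimum or one of 100, all probe sets, 1 probe set per gene, values over 2 SD missing, robust moderation with a variance trend, weights per array, a covariate for RNA integrity or the choroid plexus score, the replicate number as block, compared groups alone, the methods' analysis of variance, arrays with a choroid plexus score over 0.5 left out, and each array left out in turn.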

Additional observations from a re-analysis of the deposited data

Results flagged for a closer look

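In 4 of the 56 groups of named members 1 array stood apart from the rest of its group by Dixon's ratio, and chance gives about 1 in 20 groups. Psme1 was high on ST 2, at 865. Psme2 was low on LT 1, at 360. Psmg1 was low on ST 4, at 400, and Psmb3 was low on ST 3, at 950. Over all tested members it was 9 of 196 groups (4.59%).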

How the results depend on the processing

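The count of members higher in AC than YC, 4, was 1 with the compared groups alone (Psme1), 2 without the 5 arrays with a choroid plexus score over 0.5 (Psme2 and Psmg1), 2 with medians of the tested probe sets equal, and 3 to 5 when leaving out 1 array. The count lower, 0, was 1 with array weights, 1 with the methods' analysis of variance (both Psmd6), 2 with medians of the tested probe sets equal, and 0 to 2 when leaving out 1 array. The F test count, 3, was 1 with quantile normalization, 5 with array weights, 1 with the replicate block, 0 without the 5 arrays, 0 without the 4 arrays with a score over 2, 0 with medians of the tested probe sets equal, and 1 to 4 when leaving out 1 array. The cause was not tested. Of single calls, Psmc3 (0.10 log2 units) was lost with quantile normalization (0.10, adjusted p = 0.054) and medians of the tested probe sets equal (0.07, 0.109), and with fewer arrays at the same or a larger difference, as with the compared groups alone (0.10, 0.124) and the 5 arrays left out (0.13, 0.056). Psmg1 (0.11) was lost with the compared groups alone (0.11, adjusted p = 0.100) and with medians of the tested probe sets equal (0.08, 0.085), Psme2 (10793365, 0.13) with the compared groups alone (0.13, 0.053), and Psme1 (10780396, 0.31) without the 4 arrays (0.22, 0.099) as without the 5. Psme2 (10783805) passed with array medians equal (0.048) and without AC 2 (0.034). The median of the members in AC minus YC was 0.0040 without YC 2 and 0.0044 without AC 5.

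Some differences near 0 changed sign, none at an adjusted p under 0.05. Psmb5 in AC vs YC (0.022) was -0.0082 with medians of the tested probe sets equal. Psmb7 in AC vs YC (-0.027) was -0.053 to 0.0053 when leaving out 1 array. Psma3l in ST vs AC (0.024) was -0.010 to 0.049 when leaving out 1 array. Psmb3 in ST vs AC (-0.023) was 0.0056 with values over 2 SD missing and -0.034 to 0.0056 when leaving out 1 array. Psmb6 (10735244) in ST vs AC (-0.0076) was 0.0095 with array medians equal, 0.0089 with array weights, 0.0012 with RNA integrity as covariate and -0.025 to 0.020 when leaving out 1 array. Psmb6 (10822368) in ST vs AC (0.0012) was -0.0057 with the replicate block and -0.033 to 0.021 when leaving out 1 array. Psmc3 in ST vs AC (-0.024) was -0.039 to 0.0019 when leaving out 1 array. Psme1 (10795460) in ST vs AC (-0.021) was -0.050 to 0.0031 when leaving out 1 array. Psma3l in LT vs AC (0.031) was -0.049 with the 5 arrays left out, -0.035 with the 4 arrays left out and -0.0034 to 0.068 when leaving out 1 array. Psmb6 (10735244) in LT vs AC (-0.0055) was 0.0041 with quantile normalization, 0.0098 with array weights, 0.014 with medians of the tested probe sets equal and -0.023 to 0.022 when leaving out 1 array. Psmb6 (10822368) in LT vs AC (0.022) was -0.0060 to 0.042 when leaving out 1 array. Psmb7 in LT vs AC (0.0073) was -0.0088 with array medians equal, -0.0046 with RNA integrity as covariate, -0.0074 with the replicate block, -0.063 with the 5 arrays left out, -0.037 with the 4 arrays left out and -0.025 to 0.036 when leaving out 1 array. Psme1 (10795460) in LT vs AC (0.035) was -0.0049 with quantile normalization.

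The replicate numbers did not pair the samples, since deviations of same-numbered arrays correlated at -0.385 to 0.208 (33 pairs). With the replicate block, AC against YC gave 667 calls higher and 502 lower over the table, and the 4 members stayed called.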
